A study of Caenorhabditis elegans with 32 samples.

Results

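Whole worms mutant in both csa-1(tm4539) and csb-1(ok2335), the double mutant, given nicotinamide riboside (NR) were compared with csa-1(tm4539) single mutants on NR. Members were chosen by their labels of genotype and treatment, which gave 4 arrays of double mutant NR worms and 4 arrays of csa-1 NR worms, 8 of the 32 arrays in the series. Both groups carried csa-1(tm4539), were fed 500 µM NR from the late L4 larval stage and were harvested at adult day 7. They differed in csb-1(ok2335), so the comparison asks what went with the loss of csb-1 in worms that already lacked csa-1 and received NR. For reference, double mutant and csa-1 worms on vehicle (water), and csb-1(ok2335) and N2 (wild-type) worms on NR, were used, with 4 arrays in each group. The mutant strains had been backcrossed to N2, and the study's methods give FUDR, a drug that blocks the production of progeny, as part of the worm plates unless stated otherwise. Since RNA came from whole worms, fewer cells of a tissue and less RNA per cell cannot be told apart.

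CSA and CSB act early in transcription-coupled nucleotide excision repair, the pathway that removes lesions which stall RNA polymerase II on the transcribed strand. CSB is an ATPase of the SWI2/SNF2 family that binds the stalled polymerase, and CSA is the substrate-recognition subunit of a ubiquitin ligase, and mutations in their human genes cause Cockayne syndrome, a progeroid disorder. NR is a vitamin B3 form that cells phosphorylate and convert to NAD+, the coenzyme of redox reactions and the substrate of sirtuins and poly(ADP-ribose) polymerases.

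RNA was hybridised to 1-colour Agilent arrays, on which the brightness of a probe follows the amount of its transcript. Values are given as normalised log2 intensity, in which each array was brought to the same mean (7.86) and SD (3.74) over its gene spots, so that a difference of 1 is a doubling on an array of average spread. The 75th percentile of the raw signal lay between 1942 and 3785 on the double mutant NR arrays and between 1338 and 3883 on the csa-1 NR arrays. Between 72.2 and 74.7% of spots were well above background in the double mutant and between 65.5 and 74.6% in csa-1, with the lowest share on csa-1 replicate 4. The 4 arrays of a group lay on a slide of their own, so slide and genotype cannot be told apart in any result below.

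The targeted gene was examined first. csb-1 (F53H4.1) has 7 probes, of which A_12_P159795 separated the strains. It read 2.62, 4.73, 5.79 and 4.22 in the 4 double mutant NR arrays and 7.87, 7.66, 7.80 and 3.30 in the 4 csa-1 NR arrays. Thus csa-1 replicates 1 to 3 lay above every double mutant array, while csa-1 replicate 4 lay inside the double mutant range and against its label. On NR, this probe read 4.77, 4.58, 2.80 and 2.78 in csb-1(ok2335) worms and 7.08, 7.00, 7.36 and 7.36 in N2 worms. It was well above background on 1 of the 4 double mutant arrays and on 3 of the 4 csa-1 arrays, replicate 4 being the exception. The difference was −2.32 with all arrays (2-sided exact permutation test, p = 0.114). Without csa-1 replicate 4 it was −3.44, given with no test because this probe's value was the reason to leave the array out. The other 6 csb-1 probes differed by −0.23 to 0.24.

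The 1 probe for csa-1 (D2013.3), the gene that both strains lack, also set replicate 4 apart. It read 6.29, 6.52, 6.35 and 6.26 in the double mutant and 6.63, 6.89, 6.77 and 8.65 in csa-1 worms, whereas csb-1(ok2335) worms on NR read 8.28, 8.59, 8.36 and 8.20. The groups did not overlap, with a difference of −0.88 with all arrays (p = 0.0286 in the 2-sided exact permutation test, the floor for 4 against 4) and −0.41 without replicate 4 (2-sided exact permutation test, p = 0.0571, the floor for 4 against 3). Over 12087 genes, the array labelled csa-1 NR replicate 4 correlated at a mean r of 0.986 with the 4 csb-1(ok2335) NR arrays, 0.972 with the other csa-1 NR arrays and 0.966 with the double mutant NR arrays. By the same measure, csa-1 NR replicate 1 correlated at 0.985 with the N2 NR arrays and 0.975 with the other csa-1 NR arrays. Replicate 3 of csa-1 NR correlated at 0.970 with the others of its group. These correlations are across genes, which are not independent replicates. Counts of called genes are therefore given without this array and with it, and for single genes the text says where the call depended on it. Where 1 value with its SE and adjusted p is given, it is from the fit without replicate 4.

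**Figure D1:**
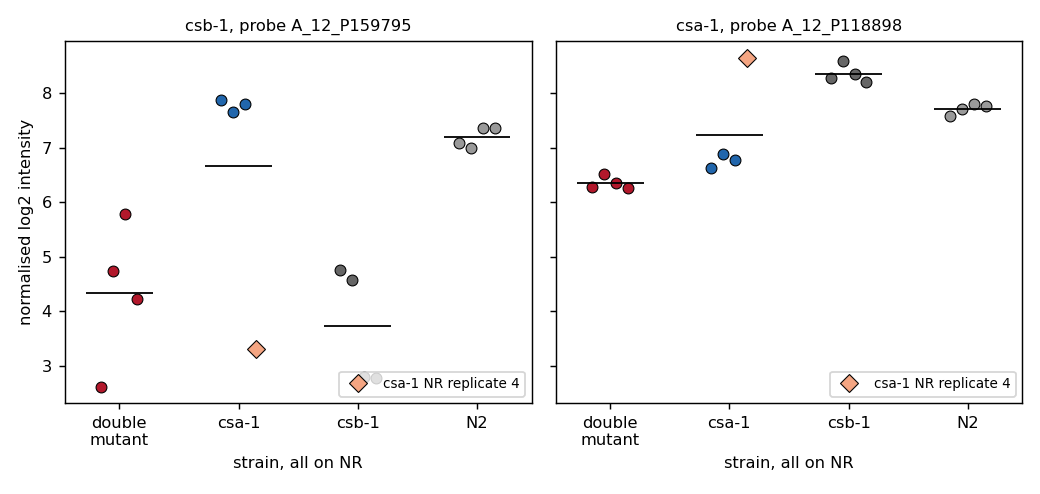
Normalised log2 intensity (y axis) of the csb-1 probe A_12_P159795 (left) and the csa-1 probe A_12_P118898 (right) on each NR array, by strain (x axis), with points for arrays and lines for the mean of each group of 4. The diamond is csa-1 NR replicate 4. It lies at 3.30 among the double mutant arrays for csb-1, and at 8.65 above the csb-1(ok2335) arrays (8.20 to 8.59) for csa-1.

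Among 25497 genes tested with limma, 462 (1.81%) were called without csa-1 replicate 4, of which 188 (0.737%) were higher and 274 (1.07%) lower in the double mutant. Calls required an adjusted p no higher than 0.05, a mean of the compared groups above the array mean and a Z-ratio, the difference over the SD of all genes' differences, of 1.5 or more in size. With all arrays, 642 genes (2.52%) were called, 290 (1.14%) higher and 352 (1.38%) lower. Both fits called 382 genes in the same direction, which is 82.7% of the calls without replicate 4 and 59.5% of those with it. On adjusted p alone, 864 genes (3.39%) passed without replicate 4 and 1196 (4.69%) with it. The number of calls rested on single arrays. When 1 further array was left out beside replicate 4, between 89 genes (without csa-1 replicate 3) and 414 genes (without csa-1 replicate 1) were called.

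Genes called higher were longer than those called lower. The median gene length in the RefSeq table was 3108 bases for genes called higher and 1186 bases for genes called lower, against 2023.5 bases for the 19792 tested genes with a length. Called genes lay on each chromosome, from 1.57% of tested genes on X to 2.59% on chromosome I. On chromosome V, 22 of 5142 tested genes were called higher and 71 lower. On chromosome I, 39 of 2820 were called higher and 34 lower. The shares over all genes were 0.737% and 1.07%. The median level of called genes was 10.31 for those higher and 10.54 for those lower.

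Among the 12 largest increases without replicate 4 were fbxa-192, spp-9, spp-21, scl-24, scl-25, clc-32, nhl-2, pst-1 and nprt-1. spp-9, a saposin-like protein gene of the family that includes antimicrobial peptides, read 11.15, 11.22, 11.50 and 11.30 in the double mutant and 8.93, 9.35, 9.64 and 11.44 in csa-1 worms. The double mutant exceeded csa-1 replicates 1 to 3 and matched replicate 4, and the difference was 1.99 ± 0.22 (SE, limma adjusted p = 3.39e-06) without replicate 4 and 1.45 ± 0.32 (adjusted p = 0.013) with it. Its relative spp-21 read 12.18 to 12.61 in the double mutant, 10.33 to 10.64 in csa-1 replicates 1 to 3 and 12.73 in replicate 4. The SCP-like secreted protein genes scl-24 and scl-25 rose by 1.77 ± 0.31 and 1.69 ± 0.32, and the claudin-like gene clc-32 by 1.53 ± 0.24 (adjusted p = 0.00155, 0.00384 and 0.000627). In each of these 5 genes csa-1 replicate 4 lay nearer to the double mutant mean than to the mean of the other csa-1 arrays. Near-identical relatives such as scl-24 and scl-25, spp-9 and spp-21, cyp-13A4 and cyp-13A5, or the hsp-16 genes may share signal on their probes, so their values are not independent.

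fbxa-192, an F-box gene, had the largest increase without replicate 4. It read 9.47, 9.70, 8.93 and 8.90 in the double mutant and 6.75, 7.37, 6.70 and 9.997 in csa-1 worms. The difference of 2.31 ± 0.39 (adjusted p = 0.0013) dropped to 1.54 ± 0.50 (adjusted p = 0.0737) with replicate 4, which was the highest of the 8 arrays, and was then not called. nhl-2, a TRIM-NHL protein that assists microRNA silencing, read 9.43 to 9.93 in the double mutant and 7.73 to 8.25 in the 4 csa-1 arrays, with no overlap. Its difference was 1.51 ± 0.41 (adjusted p = 0.0424) without replicate 4 and 1.62 ± 0.38 (adjusted p = 0.0173) with it. pst-1, a transporter of the sulfate donor PAPS, read 9.03 to 9.67 in the double mutant and 7.43 to 8.0 in the 4 csa-1 arrays (1.59 ± 0.43, adjusted p = 0.041). Its other probes, well above background on all 7 arrays, differed by less, 0.48 to 1.30 without replicate 4. nhl-2 and pst-1 were called in 0 of the 7 fits that left out 1 more array beside replicate 4, AC8.1 in 4 and nprt-1 in 5. AC8.1 owed part of its spread to csa-1 replicate 3, which read 9.90 where the other csa-1 arrays read 12.09 to 12.24.

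Among the 12 largest decreases without replicate 4 were Y68A4A.13, mtl-1, col-40, clec-45, F20E11.17 and lipl-2. Y68A4A.13, a gene named only by its sequence ID, read 5.07, 5.12, 5.24 and 4.56 in the double mutant and 13.32, 13.25, 13.55 and 5.61 in csa-1 worms. Replicates 1 to 3 of csa-1 lay far above the array mean, whereas replicate 4 and the double mutant were near background (well above it on 3 of the 4 double mutant arrays). The difference was −8.37 ± 0.21 (adjusted p = 1.26e-20) without replicate 4 and −6.43 ± 0.93 (adjusted p = 0.000752) with it. mtl-1, a metallothionein that binds zinc and cadmium, read 9.26, 9.49, 9.58 and 9.55 in the double mutant and 12.69, 12.65, 12.97 and 10.76 in csa-1 worms. All csa-1 arrays lay above the double mutant, replicate 4 by the least, and mtl-1 fell by 3.30 ± 0.38 (adjusted p = 5.79e-06) without replicate 4 and by 2.80 ± 0.42 (adjusted p = 0.000786) with it.

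F20E11.17 changed little with replicate 4. It read 8.63 to 8.96 in the double mutant and 10.90 to 11.41 in the 4 csa-1 arrays, a difference of −2.52 ± 0.32 without replicate 4 and −2.42 ± 0.30 with it (adjusted p = 3.93e-05 and 0.00012). lipl-2, a lysosomal lipase-like gene, read 8.02 to 8.42 in the double mutant, 10.56 to 11.06 in csa-1 replicates 1 to 3 and 8.62 in replicate 4 (−2.49 ± 0.28, adjusted p = 3.39e-06). ZC395.5 fell by 2.42 ± 0.39 (adjusted p = 0.000764). Among the 12 largest decreases were 3 C-type lectin genes, which encode secreted or membrane carbohydrate-binding proteins of the worm's immune repertoire. clec-45 read 8.39 to 8.78 in the double mutant, 11.02 to 11.23 in csa-1 replicates 1 to 3 and 7.70 in replicate 4, below the double mutant. clec-46 and clec-47 fell, with differences of −2.41 ± 0.17 and −2.37 ± 0.52 (adjusted p = 1.04e-09 and 0.0139). The cytochromes P450 cyp-13A5 and cyp-13A4 fell, with differences of −2.08 ± 0.24 and −2.07 ± 0.28 (adjusted p = 5.76e-06 and 9.77e-05), and in both replicate 4 lay between the groups.

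Replicate 4 decided 2 further decreases. The collagen gene col-40 read 8.55, 7.89, 8.67 and 8.38 in the double mutant and 11.18, 9.86, 12.21 and 6.47 in csa-1 worms. Its difference of −2.71 ± 0.47 (adjusted p = 0.00158) without replicate 4 was −1.56 ± 0.69 (adjusted p = 0.207) with it. C01F1.5 had the same pattern, with −2.21 ± 0.38 (adjusted p = 0.00142) and −1.18 ± 0.59 (adjusted p = 0.284).

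**Figure D2:**
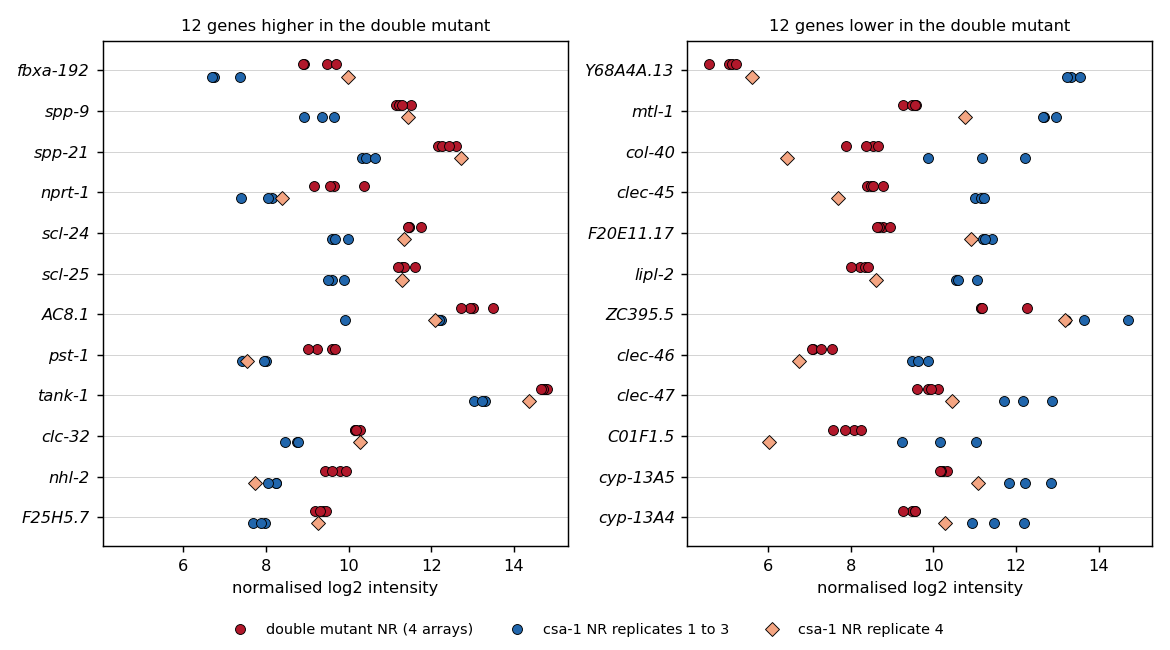
Normalised log2 intensity (x axis) on each array for the 12 genes with the largest increase (left) and the 12 with the largest decrease (right) among those called without csa-1 NR replicate 4. Red circles are the 4 double mutant NR arrays, blue circles csa-1 NR replicates 1 to 3 and orange diamonds csa-1 NR replicate 4, which lies with the double mutant for spp-9 (11.44) and Y68A4A.13 (5.61) but with csa-1 for F20E11.17 (10.90) and nhl-2 (7.73).

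Across the called genes, the position of replicate 4 varied. Of the 188 genes called higher without it, replicate 4 was nearer the double mutant mean than the csa-1 mean for 43, and of the 274 called lower for 100. It was nearer the csb-1(ok2335) NR mean than the csa-1 mean for 95 of the genes called higher and 201 of those called lower. These genes were chosen by a fit without replicate 4, and the same counts over all genes were not made. The counts therefore describe these genes only. With all arrays, 260 genes were called that were not called without replicate 4. They included kin-36 (1.41 ± 0.38, adjusted p = 0.0328, against 0.0799 without replicate 4), fhod-1, a formin of muscle (1.41 ± 0.38, adjusted p = 0.0345, against 0.0815), and the collagens col-85 (adjusted p = 0.0253 against 0.0835) and col-159 (0.0365 against 0.124). The F-box gene fbxb-65 differed by −1.60 ± 0.47 (adjusted p = 0.0461, against 0.0691 without replicate 4).

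Pathways were described through 37 lists of genes that share a function or a name, by counts of members called, beside the 0.737% of all genes called higher and the 1.07% called lower without replicate 4. In all, 84 genes on the lists were called without replicate 4 (30 higher and 54 lower), and with all arrays 53 were called higher and 51 lower. The median difference of all genes was −0.01 without replicate 4 and −0.04 with it.

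Genes for NAD+ synthesis and NAD+-consuming enzymes were considered first, since both groups received NR. Of 28 tested, 3 were called higher and 0 lower, in both fits, and the median difference was 0.05 without replicate 4. nprt-1, nicotinate phosphoribosyltransferase of the Preiss-Handler route that salvages nicotinic acid, read 9.65, 9.55, 9.17 and 10.38 in the double mutant and 8.14, 8.05, 7.39 and 8.39 in csa-1 worms. The groups did not overlap on this probe, the brightest of 3. On it, nprt-1 rose by 1.83 ± 0.40 (adjusted p = 0.0136) without replicate 4 and by 1.69 ± 0.37 (adjusted p = 0.0125) with it. Without replicate 4, another nprt-1 probe, well above background on 6 of 7 arrays, differed by 0.45. The remaining one, well above background on 0 of 7, differed by −0.65. tank-1, a tankyrase, which builds poly(ADP-ribose) chains from NAD+, read 14.76, 14.79, 14.70 and 14.66 in the double mutant and 13.03, 13.29, 13.22 and 14.36 in csa-1 worms. The csa-1 arrays were lower throughout, replicate 4 by the least (1.55 ± 0.22, adjusted p = 0.00017, without it and 1.25 ± 0.24, adjusted p = 0.00578, with it). parp-1, the poly(ADP-ribose) polymerase that responds to DNA strand breaks, read 12.75, 12.57, 12.51 and 13.15 in the double mutant and 11.95, 11.79, 10.66 and 11.73 in csa-1 worms (1.28 ± 0.30, adjusted p = 0.0188). parp-1 was called in 4 of the 7 fits that left out a further array, and tank-1 in 7.

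The enzymes that act on NR itself or finish NAD+ synthesis did not pass the test. nmrk-1, the NR kinase, read 10.80, 10.81, 10.76 and 10.82 in the double mutant and 11.20, 10.79, 10.28 and 11.04 in csa-1 worms (0.04 ± 0.20, adjusted p = 0.977). The csa-1 arrays lay on both sides of the double mutant. qns-1, NAD+ synthetase, differed by 0.34 ± 0.14 (adjusted p = 0.185), pnc-1, a nicotinamidase, by 0.27 ± 0.22 (adjusted p = 0.585) and sir-2.1, a sirtuin, by −0.10 ± 0.13 (adjusted p = 0.776). umps-1, which in worms stands in for quinolinate phosphoribosyltransferase in de novo NAD+ synthesis, differed by 0.63 ± 0.19 (adjusted p = 0.058).

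Nucleotide excision repair genes held no call in either fit, with 0 of 23 higher and 0 lower and a median of −0.04 without replicate 4. At an unadjusted p under 0.05, 5 of them were higher and 0 lower, beside 9.17% and 8.86% of all genes. xpf-1, a subunit of the nuclease that cuts 5′ of a lesion, read 13.12, 13.21, 12.99 and 13.33 in the double mutant and 12.60, 12.87, 12.14 and 12.78 in csa-1 worms, which do not overlap (0.63 ± 0.19, adjusted p = 0.0577). xpb-1, a helicase of TFIIH, differed by 0.46 ± 0.15 (adjusted p = 0.0917). Among 50 genes of DNA damage signalling and other repair, 1 was called higher (parp-1) and 1 lower. That gene, fcd-2, the worm FANCD2 of interstrand crosslink repair, read 9.48, 9.64, 9.19 and 9.43 in the double mutant, 10.94, 10.84 and 10.76 in csa-1 replicates 1 to 3 and 9.59 in replicate 4. It fell by 1.41 ± 0.15 (adjusted p = 2.26e-06) without replicate 4 and by 1.09 ± 0.20 (adjusted p = 0.00388) with it.

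Mitochondrial lists held few calls. Of 68 nuclear-encoded respiratory chain genes, 1 was called higher and 1 lower without replicate 4 (1 and 0 with it), and the median was −0.15. cyc-2.2, a cytochrome c, read 9.35 to 9.54 in the double mutant and 8.20 to 8.63 in csa-1 replicates 1 to 3 (0.98 ± 0.27, adjusted p = 0.0424), and was called in 0 of the 7 fits without a further array. gas-1, a core subunit of complex I, read 12.51, 12.66, 12.82 and 12.59 in the double mutant and 13.77, 13.38, 13.61 and 12.76 in csa-1 worms. It fell by 0.94 ± 0.22 (adjusted p = 0.0202) without replicate 4, whose value was inside the double mutant range, and was not called with it (−0.74 ± 0.22, adjusted p = 0.0548). Of 70 mitochondrial ribosomal protein genes 1 was called, mrps-33, which read 12.93 to 13.21 in the double mutant and 13.77 to 14.58 in the 4 csa-1 arrays (−1.01 ± 0.24, adjusted p = 0.0216). Of 41 genes of mitochondrial dynamics, mitophagy and autophagy, atg-10, an autophagy conjugating enzyme, was called (−0.89 ± 0.18, adjusted p = 0.00638, and −0.98 ± 0.17, adjusted p = 0.00212, with replicate 4). A list of AMP-activated kinase subunits and genes of linked pathways held 16 genes, of which none was called in either fit. At an unadjusted p under 0.05 without replicate 4 (limma), 9.17% of all genes were higher and 8.86% lower. On this list, aakg-5, let-363 and daf-15 were higher and 0 were lower. Of these 3, only aakg-5 encodes a subunit of the kinase. The mitochondrial unfolded protein response list had 0 of 21 called without replicate 4. With it, ubl-5, a cofactor of that response, was called lower (−1.19 ± 0.34, adjusted p = 0.0431, against 0.0959 without it).

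Heat shock genes had the highest share of called members among these lists. Of 28 cytosolic chaperone genes, 7 were called lower and 1 higher (cdc-37, a co-chaperone of HSP90 for kinases) without replicate 4, and the median difference was −0.27. The same 7 were lower with all arrays, where 2 were called higher. hsp-16.41, a small heat shock protein, read 14.54, 14.53, 15.05 and 14.48 in the double mutant and 15.67, 15.91, 17.07 and 15.85 in csa-1 worms. The groups did not overlap, and hsp-16.41 fell by 1.57 ± 0.32 (adjusted p = 0.00689) without replicate 4 and by 1.48 ± 0.29 (adjusted p = 0.00637) with it. hsp-16.48 had nearly the same values (−1.55 ± 0.32, adjusted p = 0.00753). hsp-12.3, another small heat shock protein, read 8.84 to 9.02 in the double mutant and 10.10 to 11.08 in the 4 csa-1 arrays (−1.93 ± 0.26, adjusted p = 6.15e-05). hsp-70, an inducible HSP70, read 11.79, 11.85, 11.89 and 11.49 in the double mutant and 12.79, 13.18, 13.63 and 12.47 in csa-1 worms (−1.44 ± 0.27, adjusted p = 0.00355). The other genes called lower were hsp-16.1, hsp-16.2 and F44E5.5.

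The constitutive chaperones did not pass. hsp-1 differed by 0.08 ± 0.32 (adjusted p = 0.972; its other probes well above background by 0.31 to 0.46), hsp-90 by −0.47 ± 0.40 (adjusted p = 0.618; other probes by −0.23 to 0.26) and the small heat shock protein sip-1 by −0.44 ± 0.49 (adjusted p = 0.724). hsf-1, the heat shock transcription factor, read 11.23 to 11.46 in the double mutant and 10.24 to 10.90 in the 4 csa-1 arrays. It rose by 0.77 with all arrays (adjusted p = 0.048) but did not pass without replicate 4 (0.71 ± 0.25, adjusted p = 0.108). Of 27 genes listed under endoplasmic reticulum folding, ckb-2, a choline kinase rather than a chaperone, was called lower (−1.60 ± 0.40, adjusted p = 0.0294). Its other probe, well above background on all 7 arrays, differed by −0.46. trap-3, a translocon-associated protein, was called higher with all arrays only (0.80 ± 0.22, adjusted p = 0.0387, against 0.0528). Of 33 proteasome genes, rpn-1, a base subunit of the 19S particle, rose by 0.87 ± 0.21 (adjusted p = 0.0242).

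**Figure D3:**
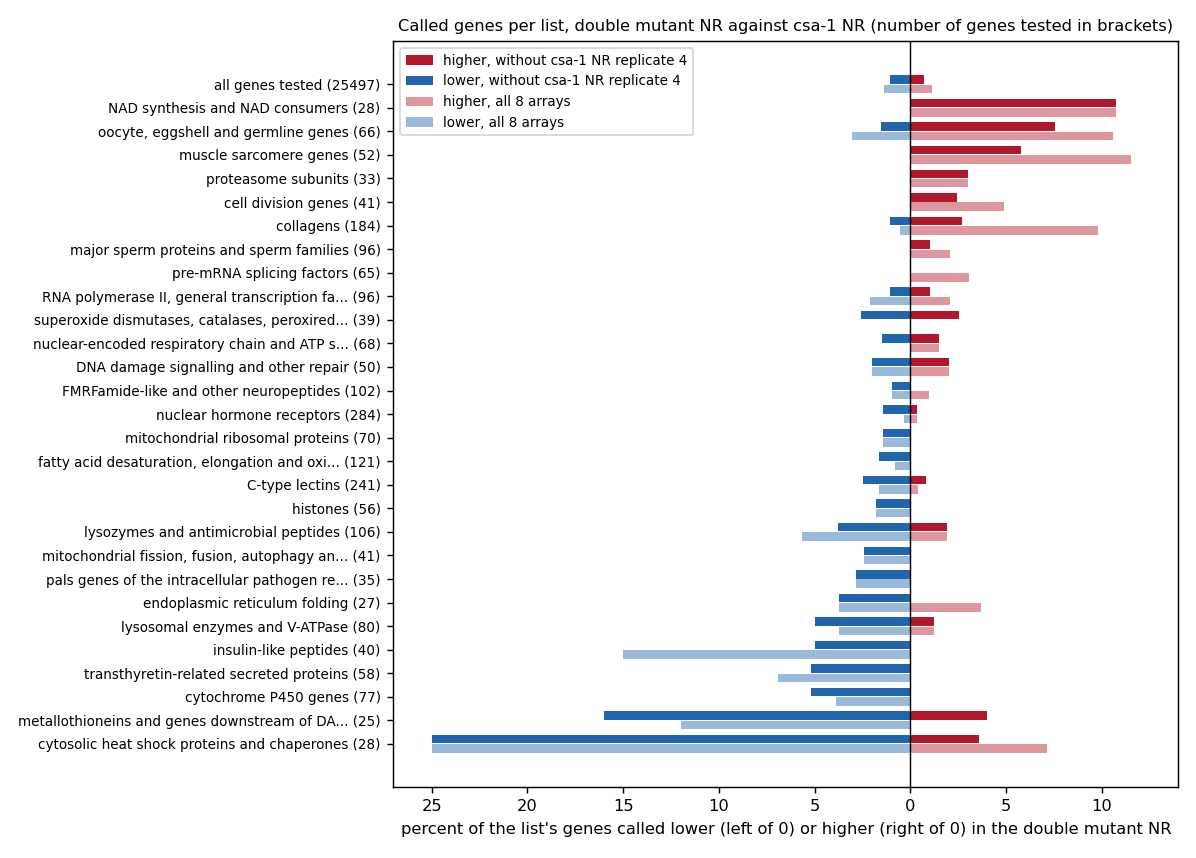
Share of each list's tested genes called lower (left of 0) or higher (right of 0) in the double mutant NR against csa-1 NR, in percent on the x axis, for lists with at least 2 calls over both fits and for all genes. Red bars are genes higher and blue bars genes lower, in full colour for the fit without csa-1 NR replicate 4 and in pale colour for all 8 arrays. Heat shock genes (7 of 28 lower) and metallothioneins with insulin-pathway targets (4 of 25 lower) reach farthest left, and of the full-colour bars NAD genes (3 of 28 higher) reach farthest right.

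Muscle genes were higher in the double mutant where they passed. Of 52 sarcomere genes, 3 were called higher and 0 lower without replicate 4, and 6 and 0 with it. 44 of the 52 had a positive difference without replicate 4, beside 12436 of all 25497 genes, and the median was 0.31, or 0.45 with all arrays. unc-54, the major myosin heavy chain of body wall muscle, read 11.78, 11.72, 11.67 and 11.71 in the double mutant and 10.35, 10.52, 10.48 and 9.05 in csa-1 worms. The csa-1 arrays were lower, replicate 4 by the most, and unc-54 rose by 1.27 ± 0.29 (adjusted p = 0.0159) without replicate 4 and by 1.62 ± 0.31 (adjusted p = 0.00481) with it. unc-15, paramyosin, rose by 1.31 ± 0.29 (adjusted p = 0.0148) and tnt-2, a troponin T, by 1.01 ± 0.26 (adjusted p = 0.0346). tnt-2 was called in 1 of the 7 fits without a further array, unc-15 in 3 and unc-54 in 5. The mean over the 12 body wall muscle markers was 12.79 to 12.87 in the double mutant, 12.21 to 12.36 in csa-1 replicates 1 to 3 and 11.50 in replicate 4. Of these 12 markers, 3 were called higher without replicate 4 and 4 with it. The part of muscle mass in these results was not tested.

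The counts over collagens, of the cuticle and of the basement membrane, depended on replicate 4, with 5 of 184 called higher and 2 lower without it and 18 and 1 with it. Both counts of higher genes include let-2, a type IV collagen of the basement membrane (1.22 ± 0.31, adjusted p = 0.0329), and the count with all arrays also emb-9, the other type IV collagen (0.85 ± 0.23, adjusted p = 0.0309, against 0.0585 without replicate 4). Both were picked out after their values were seen. let-2 was called in 0 of the 7 fits that left out a further array beside replicate 4. rol-1, a cuticle collagen, read 13.15, 13.08, 12.81 and 12.73 in the double mutant and 11.22, 11.89, 12.14 and 10.19 in csa-1 worms. It rose by 1.19 ± 0.23 (adjusted p = 0.00445) without replicate 4, the lowest array, and by 1.58 ± 0.28 (adjusted p = 0.00273) with it. The mean over the hypodermis markers was 10.22 to 10.46 in the double mutant, 10.09 to 10.56 in csa-1 replicates 1 to 3 and 9.56 in replicate 4, with 0 called without replicate 4 and 1 higher with it, and the part of this tissue in the collagen counts was not tested.

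Germline genes had mostly positive differences, few of which were called. Of 66 oocyte, eggshell and germline RNA genes, 5 were called higher and 1 lower without replicate 4 (7 and 2 with it), and the median difference was 0.41. gld-2, the cytoplasmic poly(A) polymerase needed for germ cell development, read 10.58, 10.34, 10.26 and 10.35 in the double mutant and 9.64, 9.59, 9.06 and 9.14 in csa-1 worms (0.95 ± 0.22, adjusted p = 0.0166). egg-1, an oocyte surface protein needed for fertilisation, rose by 0.97 ± 0.26 (adjusted p = 0.042), whereas the chondroitin proteoglycan gene cpg-20 fell by 0.96 ± 0.24 (adjusted p = 0.0257). egg-1 was called in 1 of the 7 fits that left out a further array beside replicate 4, and cpg-20 in 3. mex-1, a CCCH zinc finger protein of the early germline, passed with all arrays only (1.02 ± 0.28, adjusted p = 0.0386, against 0.0946). Of 96 sperm genes, only gsp-4, a sperm protein phosphatase, was called without replicate 4, whereas 2 were called higher with it. gsp-4 read 9.82, 10.09, 9.75 and 9.80 in the double mutant and 8.08, 8.77, 8.84 and 9.15 in csa-1 worms (1.30 ± 0.30, adjusted p = 0.0173). The median difference over the sperm list was 0.68, and 41 of its genes were higher at an unadjusted p under 0.05 (2 lower), beside 9.17% of all genes.

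The markers of these tissues were summed as well. The mean over the 9 sperm markers tested was 11.23 to 11.37 in the double mutant, 10.13 to 10.67 in csa-1 replicates 1 to 3 and 10.78 in replicate 4. That of the 12 germline and oocyte markers was 15.21 to 15.36 in the double mutant, 14.30 to 15.22 in csa-1 replicates 1 to 3 and 15.11 in replicate 4. Embryo markers, whose mean was 9.45 to 9.64 in the double mutant and 9.56 to 9.74 in csa-1 replicates 1 to 3, had 0 calls, and sdz-23 was above background on none of the 8 arrays. Intestine, pharynx and neuron markers held no call without replicate 4, and 1 neuron marker was called higher with it. Whether the share of germline tissue had a part in these results was not tested.

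Genes downstream of the insulin-like pathway were lower in several cases. DAF-16, a FOXO factor that insulin signalling holds inactive, promotes stress resistance genes such as metallothioneins and superoxide dismutase. Of 25 metallothioneins, pathway genes and reported DAF-16 targets, 4 were called lower and 1 higher without replicate 4 (3 and 0 with it), and the median was −0.08. Beside mtl-1, dod-3 read 8.56, 8.74, 8.82 and 8.35 in the double mutant, 10.50, 10.55 and 10.76 in csa-1 replicates 1 to 3 and 8.45 in replicate 4 (−1.99 ± 0.18, adjusted p = 1.43e-07). dod-24 fell by 1.2 ± 0.26 (adjusted p = 0.0106). sod-3, the manganese superoxide dismutase often read as a DAF-16 reporter, read 8.93, 9.15, 9.19 and 8.86 in the double mutant and 9.78, 9.72, 10.17 and 9.24 in csa-1 worms (−0.86 ± 0.23, adjusted p = 0.0405, and −0.70 ± 0.22, adjusted p = 0.0688, with replicate 4). It was called in 0 of the 7 fits that left out a further array. age-1, the phosphoinositide 3-kinase of the pathway, was called higher without replicate 4 and in 3 of these 7 fits, and was not called with all arrays. daf-16 itself differed by 0.31 ± 0.20 (adjusted p = 0.458) on its brightest probe and by 0.61 to 0.86 on its other 4 probes. dod genes were first listed in the literature by their response to daf-2 and daf-16, and they include genes that DAF-16 raises and genes that it lowers.

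**Figure D4:**
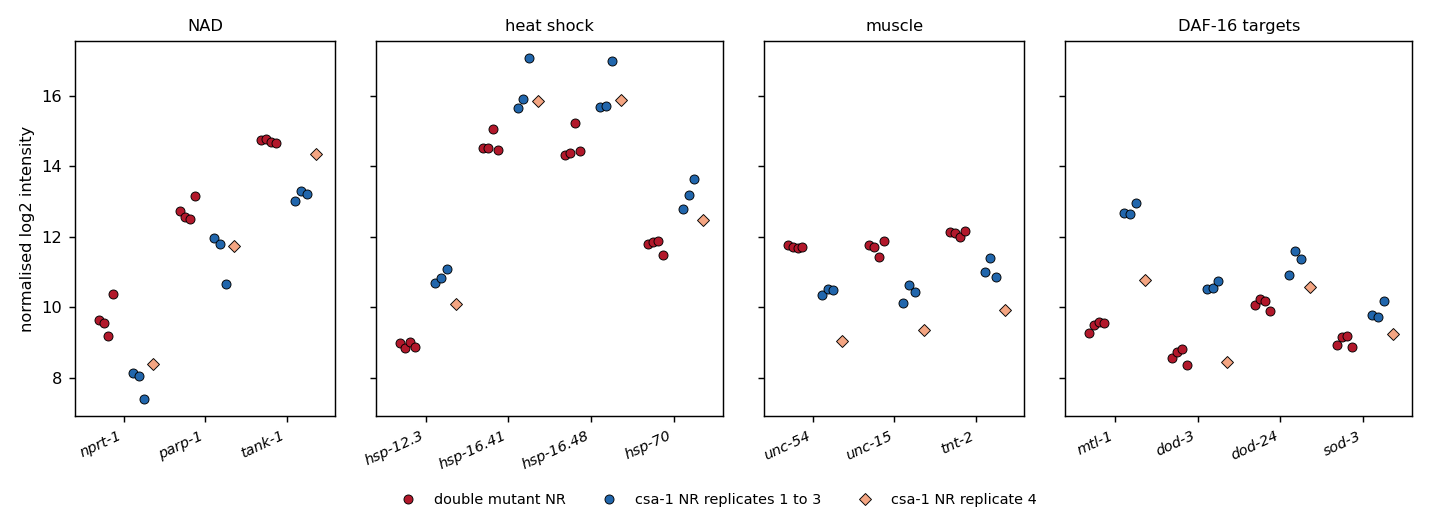
Normalised log2 intensity (y axis) on each array for members of 4 lists (x axis), picked from those called without csa-1 NR replicate 4. Red circles are double mutant NR arrays, blue circles csa-1 NR replicates 1 to 3 and orange diamonds csa-1 NR replicate 4. The NAD and muscle genes drawn are higher in the double mutant than in csa-1 replicates 1 to 3 (unc-54, 11.67 to 11.78 against 10.35 to 10.52). The heat shock and DAF-16 list genes drawn are lower (mtl-1, 9.26 to 9.58 against 12.65 to 12.97). The whole lists were less uniform. Without replicate 4, differences were positive for 16 of 28 NAD, 44 of 52 muscle, 9 of 28 heat shock and 9 of 25 DAF-16 list genes.

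Insulin-like peptide genes were lower where they passed. Of 40 insulin-like genes, 2 were called lower without replicate 4 and 6 with it, and 0 higher in both. ins-20, ins-23, ins-29 and ins-36 passed with all arrays (adjusted p = 0.0295, 0.037, 0.0435 and 0.0281) and not without replicate 4 (0.0993, 0.107, 0.0926 and 0.0714). ins-20 read 8.03, 8.1, 8.95 and 8.33 in the double mutant and 8.98, 8.90, 10.24 and 10.52 in csa-1 worms, with replicate 4 the highest. The neuropeptide list held 102 genes, some of them for peptide processing and release. Of these 102, 1 was called lower and 0 higher without replicate 4, and 1 lower and 1 higher with it. The higher one, ida-1, does not itself encode a neuropeptide. It was picked out after its values were seen (0.84 ± 0.22, adjusted p = 0.0314, against 0.0691 without replicate 4). The lower one, nlp-3, read 10.75 to 10.88 in the double mutant and 11.58 to 11.82 in the 4 csa-1 arrays (−0.88 ± 0.16, adjusted p = 0.00249, and −0.89 ± 0.14, adjusted p = 0.00144, with replicate 4). The groups did not overlap. ace-2, an acetylcholinesterase, read 5.68, 6.89, 6.69 and 6.55 in the double mutant, well above background on 4 of 4 arrays, and 2.79, 3.91, 3.95 and 3.30 in csa-1 worms, not well above background on any (0 of 4). Against csa-1 replicates 1 to 3 it was at least 3.16-fold higher (adjusted p = 0.0152). This bound sets the double mutant mean against the lowest signal well above background on each csa-1 array. ace-2 was not called, since its mean lay below the array mean.

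Lysosomal and immune genes were mostly lower where called. Of 80 lysosomal genes, 4 were called lower and 1 higher without replicate 4 (3 and 1 with it). Beside lipl-2, the genes for asp-13, an aspartyl protease (−1.60 ± 0.23, adjusted p = 0.000182), pcp-1, a prolyl carboxypeptidase-like protein (−1.30 ± 0.28, adjusted p = 0.00993), and aagr-1, an acid alpha-glucosidase (−1.28 ± 0.22, adjusted p = 0.0013), fell. asp-13 and pcp-1 were not called with all arrays (adjusted p = 0.132 and 0.0654), where replicate 4 read 7.22 and 8.59, below or inside the double mutant range of 7.92 to 8.46 and 8.54 to 8.78. Of 106 lysozymes and antimicrobial peptide genes, 4 were called lower and 2 higher (spp-9 and spp-21) without replicate 4, 6 and 2 with it, and the median was −0.45. ilys-5, an invertebrate-type lysozyme, read 9.51, 9.67, 9.63 and 9.45 in the double mutant and 11.06, 11.70, 11.50 and 9.89 in csa-1 worms (−1.86 ± 0.19, adjusted p = 1.02e-06). spp-20 fell by 1.63 ± 0.27 (adjusted p = 0.00099). Of 241 C-type lectin genes, 6 were called lower and 2 higher without replicate 4, and 4 and 1 with it.

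Cytochrome P450 genes were lower where called. Of 77, 4 were called lower and 0 higher without replicate 4 (3 and 0 with it), among them cyp-34A9, which read 7.82 to 8.08 in the double mutant, 9.67 to 9.85 in csa-1 replicates 1 to 3 and 8.05 in replicate 4 (−1.83 ± 0.18, adjusted p = 6.9e-07). Of 39 antioxidant genes, sod-3 was called lower and trx-3, a thioredoxin, higher without replicate 4, and neither with it. trx-3 read 8.34 to 8.49 in the double mutant, 7.04 to 7.58 in csa-1 replicates 1 to 3 and 8.80 in replicate 4, and passed without that array and not with it (1.1 ± 0.20, adjusted p = 0.00356, against 0.093). Of 35 pals genes, which respond to intracellular pathogens, pals-24 was called lower (−0.90 ± 0.23, adjusted p = 0.0288) and the median was −0.46. Of 46 glutathione S-transferases and 67 UDP-glucuronosyltransferases, 1 each was called lower and 0 higher without replicate 4, and 0 with it. None of the 8 flavin monooxygenase and alcohol dehydrogenase genes was called in either fit. At an unadjusted p under 0.05 without replicate 4 (limma), 1 of the 8 was lower, beside 8.86% of all genes.

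Genes of transcription and the ribosome held few calls. Of 78 cytosolic ribosomal protein genes 0 were called. Without replicate 4, 76 of the 78 had a negative and 2 a positive difference, and the median was −0.56. Over all 25497 genes, 12436 had a positive difference. The 78 genes were read on the same arrays, so their signs are not independent. At an unadjusted p under 0.05 (limma), 0 of the 78 were higher and 1 lower, beside 9.17% and 8.86% of all genes. The mean over the 78 genes was 16.98 to 17.61 in the double mutant and 17.36 to 18.05 in csa-1 replicates 1 to 3, which overlap. Of 56 histone genes, his-37, a histone H4, was called lower (−1.03 ± 0.23, adjusted p = 0.017) and the median was −0.42. Of 96 RNA polymerase II and general transcription factor genes, 1 was called higher and 1 lower without replicate 4 (2 and 2 with it). cdk-12, a kinase of the polymerase's C-terminal domain, read 10.21 to 10.66 in the double mutant and 9.10 to 9.74 in the 4 csa-1 arrays (0.93 ± 0.24, adjusted p = 0.0356), and gtf-2A2, a subunit of TFIIA, read 10.68 to 10.96 in the double mutant and 11.14 to 12.09 in the 4 csa-1 arrays (−0.81 ± 0.22, adjusted p = 0.0405). Of 284 nuclear hormone receptors, 4 were called lower and 1 higher without replicate 4, and 1 each with it. nhr-17 read 10.04 to 10.27 in the double mutant and 10.99 to 11.97 in the 4 csa-1 arrays (−1.58 ± 0.23, adjusted p = 0.00017), and nhr-23, a receptor of the moulting cycle, rose by 1.05 ± 0.24 (adjusted p = 0.0166). Of 58 transthyretin-related genes, which encode small secreted proteins, 3 were called lower and 0 higher without replicate 4 (4 and 0 with it), ttr-42 among them (−1.11 ± 0.26, adjusted p = 0.0188), with a median of −0.48. Of 41 cell division genes, klp-7, a kinesin that depolymerises microtubules, was called higher (1.16 ± 0.32, adjusted p = 0.046), and 2 were called higher with all arrays. klp-7 was called in 1 of the 7 fits that left out a further array beside replicate 4. Of 121 fat metabolism genes, 2 were called lower and 0 higher without replicate 4, and 1 and 0 with it. Lists of splicing factors (65 genes), vitellogenins and yolk uptake (11) and synaptic genes (36) held no call without replicate 4. With it, 2 splicing factors were called higher. At an unadjusted p under 0.05 without replicate 4 (limma), 7, 2 and 2 of their genes were higher and 1, 0 and 0 lower. The shares over all genes were 9.17% and 8.86%.

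The same contrast was then examined on vehicle, in arrays that the NR comparison does not share. On vehicle, 345 genes (1.35%) were called between the double mutant and csa-1, 253 (0.992%) higher and 92 (0.361%) lower. Of the 188 genes called higher on NR without replicate 4, 126 (67.0%) had the same direction on vehicle, beside 51.3% of all genes, and 12 were called there in the same direction and 0 in the opposite one. Of the 274 called lower on NR, 150 (54.7%, beside 48.7% of all genes) had the same direction on vehicle, with 19 called in the same direction and 13 in the opposite one. The difference itself between NR and vehicle passed for 675 genes (2.65%) without replicate 4 and for 832 (3.26%) with it.

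Several of the largest NR differences were present on vehicle. Y68A4A.13 averaged 6.52 ± 0.35 in the double mutant and 13.19 ± 0.31 in csa-1 worms on vehicle (SD, n = 4 each), a difference of −6.67 ± 0.19 (adjusted p = 5.89e-19). Its NR difference was the larger by 1.70 (−1.70, interaction adjusted p = 0.00152). On vehicle the differences of mtl-1, fcd-2 and ilys-5 were −2.1 ± 0.35, −1.82 ± 0.14 and −2.02 ± 0.18 (adjusted p = 0.00118, 5.56e-09 and 6.6e-08), and their interactions did not pass (adjusted p = 0.242, 0.333 and 0.844). spp-9, spp-21, scl-24 and clc-32 rose on vehicle by 1.67 ± 0.20, 1.60 ± 0.21, 2.97 ± 0.28 and 1.37 ± 0.22 (adjusted p = 2.36e-05, 5.21e-05, 3.27e-07 and 0.000969).

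For other genes the difference between the strains differed between NR and vehicle, by the test of the interaction. The heat shock genes were among them. hsp-16.41 averaged 16.35 in the double mutant and 15.86 in csa-1 worms on vehicle, a difference of 0.49 ± 0.29 (adjusted p = 0.406), so that the NR difference lay 2.06 below it (−2.06, interaction adjusted p = 0.00857). For hsp-12.3 the vehicle difference was −0.03 ± 0.24 and the interaction −1.90 (adjusted p = 0.00315). For hsp-70 the interaction did not pass (−1.14, adjusted p = 0.0957). mrps-33 turned its sign, with 1.12 ± 0.22 on vehicle (adjusted p = 0.00492) and −1.01 ± 0.24 on NR (interaction −2.14, adjusted p = 0.000777). dod-3 (interaction −1.89, adjusted p = 0.000232), clec-45 (−1.79, adjusted p = 3.73e-05), nhr-17 (−1.83, adjusted p = 0.00162), nlp-3 (−1.07, adjusted p = 0.00631) and gld-2 (1.14, adjusted p = 0.0336) also passed. Y57E12B.1, which read 5.84 to 6.36 in the double mutant and 7.61 to 8.0 in the 4 csa-1 arrays, had a large interaction, with −1.76 ± 0.23 on NR and 1.13 ± 0.22 on vehicle (−2.89, adjusted p = 3.49e-05). ZC21.10 did likewise, with −0.84 ± 0.17 on NR and 0.86 ± 0.16 on vehicle (−1.70, adjusted p = 0.000335). For the NAD genes nprt-1, tank-1 and parp-1 the vehicle differences were 0.48 ± 0.37, 0.63 ± 0.20 and 0.15 ± 0.27, none called, and the interactions did not pass (adjusted p = 0.211, 0.103 and 0.144).

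The difference that went with csb-1(ok2335) on NR was also measured in the N2 background, again in arrays of its own. Between csb-1(ok2335) NR and N2 NR worms, 790 genes (3.1%) were called, 543 (2.13%) higher and 247 (0.969%) lower. Of the 188 genes higher in the double mutant, 92 (48.9%, beside 46.4% of all genes) had the same direction in this background, and 19 were called in the same direction and 4 in the opposite one. Of the 274 lower genes, 179 (65.3%, beside 53.6% of all genes) had the same direction, with 62 called in the same direction and 20 in the opposite one. The csa-1 by csb-1 interaction passed for 1083 genes (4.25%) without replicate 4 and for 1603 (6.29%) with it.

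Genes that went the same way with csb-1(ok2335) in both backgrounds included Y68A4A.13, which averaged 6.39 in csb-1(ok2335) and 13.38 in N2 worms on NR (−6.99 ± 0.19, adjusted p = 1.81e-19), and mtl-1, which averaged 10.49 and 13.62 (−3.13 ± 0.35, adjusted p = 1.77e-06). fcd-2 fell by 1.63 ± 0.14, spp-9 rose by 2.11 ± 0.20 and tank-1 by 1.21 ± 0.20 (adjusted p = 1.63e-08, 1.44e-07 and 0.000531). The muscle genes went apart. unc-54 differed by −0.62 ± 0.27 between csb-1(ok2335) and N2 worms (adjusted p = 0.206) where it rose by 1.27 ± 0.29 in the csa-1 background (interaction 1.90, adjusted p = 0.00549). The interaction also passed for unc-15 (2.05, adjusted p = 0.00351), tnt-2 (2.08, adjusted p = 0.00128), rol-1 (2.04, adjusted p = 0.000446), hsp-70 (−1.77, adjusted p = 0.0056) and nhr-17 (−2.49, adjusted p = 3.14e-05). Large interactions were also measured for F56D6.8, dct-7 and lips-11. F56D6.8 fell by 0.98 ± 0.23 in the csa-1 background and rose by 2.44 ± 0.21 in the N2 background (−3.41, adjusted p = 2.83e-07), and dct-7 fell by 1.17 ± 0.23 and rose by 1.84 ± 0.21 (−3.01, adjusted p = 3.62e-06). lips-11 differed by −0.02 ± 0.17 in the csa-1 background, with replicate 4 at 12.68 above the other 7 arrays, and rose by 2.57 ± 0.16 in the N2 background (−2.60, adjusted p = 2.83e-07).

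A few genes were called in all 3 comparisons in the same direction. The 7 that were higher were F25H5.7, R07C12.1, clc-32, scl-24, scl-25, spp-9 and spp-21. The 14 that were lower were Y68A4A.13, mtl-1, fcd-2, lipl-2, clec-45, clec-65, cyp-13A4, cyp-13A5, cyp-34A9, ilys-5, aagr-1, asp-13, fipr-24 and C08F11.13. With replicate 4, R07C12.1, clec-65 and asp-13 were not called on NR (adjusted p = 0.13, 0.114 and 0.132). F25H5.7 rose by 1.49 ± 0.21 on NR and by 1.59 ± 0.19 on vehicle, and by 0.91 ± 0.19 in csb-1(ok2335) against N2 (adjusted p = 0.000125, 2.03e-05 and 0.00442). aagr-1 had differences of −1.28 ± 0.22, −0.97 ± 0.20 and −1.14 ± 0.20 in the same order (adjusted p = 0.0013, 0.00709 and 0.000836). The other probe of F25H5.7, well above background on all 7 arrays, differed by 0.64 on NR without replicate 4.

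**Figure D5:**
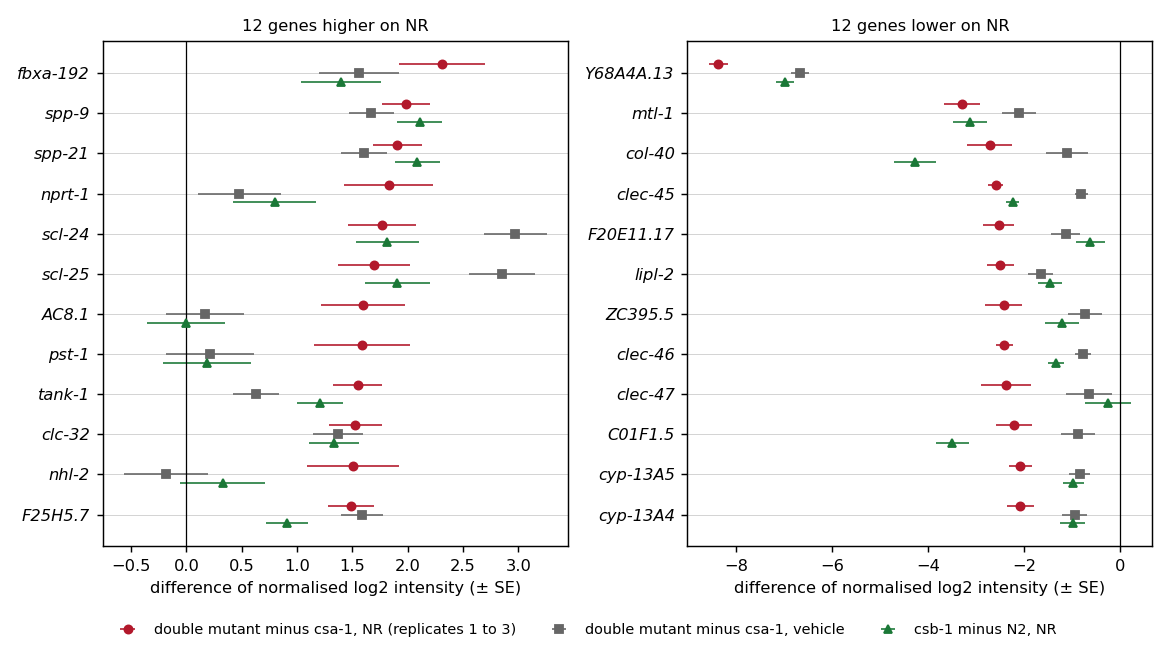
Difference of normalised log2 intensity ± SE (x axis) for the 12 genes with the largest increase and the 12 with the largest decrease on NR. Red circles are double mutant minus csa-1 on NR without replicate 4, grey squares double mutant minus csa-1 on vehicle, and green triangles csb-1(ok2335) minus N2 on NR. Y68A4A.13 is far below 0 in all 3 (−8.37, −6.67 and −6.99), and nhl-2 is near 0 in the comparisons other than the NR one (−0.18 and 0.33).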

How the data were processed

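RNA of whole worms was measured on 32 1-colour Agilent arrays, 8 groups of 4, of which 8 arrays form the main comparison and the others served for the shared estimate of spread and for the vehicle and N2 comparisons. The deposited scanner files hold the intensity of each of 45220 spots per array, background-subtracted, with low values raised to a floor, by the authors' Feature Extraction software (version 11.5.1.1, per the file headers). The deposited value table holds a score, each array's log2 intensity as a Z-score, which was used as an alternative. It differed by at most 0.005 from a Z-score computed here over all 45220 spots, controls included. The log2 intensity computed here from the deposited signals was Z-transformed within each array over 43803 gene spots (1417 control spots left out) and put back on the mean and SD over arrays (7.86 and 3.74, SD per array 3.17 to 4.00), since Z-ratios are the study's measure. This scaling gives every array the same spread, so differences on a given array are stretched or shrunk with it. Of 43603 probes, 289 with outlier flags were left out, and the brightest probe stood for its gene. This gave 25497 genes, 19792 of them matched to the RefSeq gene table (assembly WBcel235) and 5705 under the name in the files.

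limma 3.58.1 (R 4.3.3, data.table version 1.17.8) was fitted to all 32 arrays with 1 mean per group and Benjamini-Hochberg adjustment over all genes. Calls required a mean of both groups above the array mean, a Z-ratio of 1.5 or more in size and an adjusted p no higher than 0.05, which alone was required of interactions. Vehicle and csb-1 against N2 values come from the fit without csa-1 NR replicate 4. The csa-1 and csb-1 probes were tested by exact permutation. The number of arrays limits the precision, and 0 gene spots were saturated. The labels do not say that the arrays of a group came from separate cultures, and the methods give 3 biological replicates where 4 arrays were deposited, so p-values measure the spread between these arrays, which may be technical. The script was tested on simulated data.

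Genes were named by a rule: the 12 largest called differences in each direction without replicate 4 whose groups did not overlap, up to 4 more in each direction from the fit with all arrays, up to 4 members of each list, and the leading interactions. A further 22 genes were added for their roles or as named members of a count after their values were seen. The members and the 37 lists were chosen with earlier results of these data known. Alternatives were the scaling, background correction, probe rule, filter on dim probes, array weights, replicate block and leaving out arrays (normexp used the median foreground and background intensity with an offset of 50), and leaving out replicate 4 together with another array was added after seeing the data. No sequences or coordinates were used here.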

Additional observations from a re-analysis of the deposited data

Results flagged for a closer look

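In sets of 4 arrays of 1 group, 28 arrays stood apart from the other 3 of their group by Dixon's test, out of 226 sets examined. Chance flags about 1 in 20 sets that were not chosen by their values, but many genes here were named because they were called without csa-1 NR replicate 4, so this rate does not apply to its flags. Of these, 14 were csa-1 NR replicate 4 and 9 were double mutant NR arrays. The array labelled csa-1 NR replicate 4 stood apart for the csb-1 probe (3.30) and the csa-1 probe (8.65). It stood apart upward for spp-21 (12.73), clc-32 (10.28) and F56D6.8 (12.73). It stood apart downward for Y68A4A.13 (5.61), mtl-1 (10.76), clec-45 (7.70), clec-46 (6.76), dod-3 (8.45), cyp-34A9 (8.05), fcd-2 (9.59), col-85 (5.98) and unc-54 (9.05).

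Double mutant NR replicate 3 was the highest of its group for scl-24 (11.74), ZC395.5 (12.27), hsp-16.1 (15.02), hsp-16.41 (15.05), hsp-16.48 (15.23), ins-36 (9.36), ins-23 (11.53) and gtf-2A2 (10.96), and replicate 4 was the highest for ida-1 (11.11). Replicate 3 of csa-1 NR was also the highest of its group for hsp-16.41 (17.07), hsp-16.48 (17.01) and ttr-42 (14.75), and the lowest for AC8.1 (9.90). Replicate 1 of csa-1 NR was the highest for daf-16 (11.99).

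The difference between double mutant and csa-1 worms differed between NR and vehicle for 24 of the 105 genes examined, by limma's interaction term over all arrays, beside 3.26% of all genes. Since genes were named in part for large NR differences or leading interactions, this share is a description only, as is that of the next paragraph. Among heat shock genes, the NR difference minus the vehicle difference was −1.71 for hsp-12.3 (adjusted p = 0.0064), −1.97 for hsp-16.41 (0.0069), −2.0 for hsp-16.48 (0.00632), −1.41 for hsp-16.1 (0.0101), −1.33 for hsp-16.2 (0.0137) and −1.15 for F44E5.5 (0.0235). Among insulin-like and neuropeptide genes it was −2.70 for ins-29 (0.00258), −1.94 for ins-36 (0.0137), −1.74 for ins-20 (0.0461), −1.62 for ins-23 (0.0341) and −1.09 for nlp-3 (0.00329). It was −2.18 for mrps-33 (0.000373), −2.34 for ubl-5 (0.00641), −1.33 for atg-10 (0.00236), −2.05 for ckb-2 (0.0283), −1.09 for his-37 (0.0497) and −1.64 for nhr-17 (0.00385). It was −2.91 for Y57E12B.1 (6.64e-06) and −1.83 for ZC21.10 (0.000176). Positive values were 3.67 for ace-2 (0.0131), whose csa-1 NR arrays were not well above background, 1.5 for let-2 (0.0405), 1.26 for ida-1 (0.0257), 1.21 for gld-2 (0.0153) and 1.02 for rpn-1 (0.0343).

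The difference that went with csb-1(ok2335) on NR differed between the csa-1 and N2 backgrounds for 32 genes, by the interaction over all arrays, beside 6.29% of all genes. It was more positive beside csa-1 for muscle and collagen genes, with unc-54 at 2.25 (adjusted p = 0.00215), unc-15 at 2.31 (0.00111), tnt-2 at 2.37 (0.000513), rol-1 at 2.43 (0.000476), col-85 at 2.60 (0.00549), col-159 at 2.86 (0.00477), let-2 at 1.47 (0.0295) and emb-9 at 1.06 (0.0463). It was also more positive for asp-13 (2.1, 0.0137), klp-7 (1.5, 0.0278), cyc-2.2 (1.36, 0.0184), nhr-23 (1.2, 0.0228), xpf-1 (0.93, 0.0205) and xpb-1 (0.67, 0.0402). Heat shock genes were more negative beside csa-1, with hsp-16.2 at −2.13 (0.000165), hsp-16.48 at −1.77 (0.0091), hsp-16.41 at −1.75 (0.00969), hsp-16.1 at −1.66 (0.00158), hsp-70 at −1.58 (0.00845) and F44E5.5 at −1.46 (0.00214). The remaining negative values were −3.64 for F56D6.8 (3.22e-07), −3.31 for dct-7 (3.79e-06), −3.10 for lips-11 (5.87e-05), −2.96 for Y57E12B.1 (1.58e-06), −2.64 for fbxb-65 (0.015), −2.31 for nhr-17 (0.000112), −1.90 for ZC21.10 (4.61e-05), −1.81 for F20E11.17 (0.00872), −1.75 for cpg-20 (0.000897), −1.32 for atg-10 (0.00114), −1.30 for nlp-3 (0.000394) and −1.02 for gtf-2A2 (0.0278).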

How the results depend on the processing

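The share of genes called between double mutant NR and csa-1 NR worms (2.52% of 25497) depended on single arrays and on the background correction. Leaving out 1 array gave 0.486% (without double mutant replicate 1) to 2.35% (without csa-1 replicate 1), with 0.984% without double mutant replicate 2, 0.804% without its replicate 4, 0.671% without csa-1 replicate 3 and 1.81% without csa-1 replicate 4. Added after seeing the data, leaving out csa-1 replicate 4 and another array gave 1.62%, 0.988% and 0.349% (csa-1 replicates 1 to 3) and 0.608%, 0.788%, 1.42% and 0.765% (double mutant replicates 1 to 4). Quantile normalisation gave 4.07%, normexp background correction 6.96% (6.21% without csa-1 replicate 4) and adjusted p alone 4.69%, and quantile normalisation called 621 of the 642 genes. The other alternatives were within 1.5 times of 2.52%, except the replicate block without csa-1 replicate 4 (1.47%). Without replicate 4, 30.1% of calls were higher with 75th percentile scaling, 52.9% when limma was fitted to the 7 arrays alone and 40.7% with the scaling and fit reported. The 75th percentile scaling moved the median difference of all genes to −0.17 over all arrays, and the collagen list's median to −0.03.

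Replicate numbers paired the arrays in part at most. Deviations of same-numbered arrays correlated at −0.27, 0.44, 0.61 and −0.17, the last with csa-1 replicate 4. The best match carried the same number for replicates 2 and 3 only. With the replicate block 2.55% of genes were called. Without replicate 4 it was 1.47%, against 1.81% with no block. The genes that differed between NR and vehicle (832) numbered 443 to 729 when 1 array was left out, 1473 with 75th percentile scaling, 1690 with quantile and 2229 with normexp, and those of the csa-1 by csb-1 interaction (1603) 1079 to 1807, 3077, 2809 and 3492. Called members of the lists numbered 34 to 96 when 1 array was left out, 165 with quantile and 301 with normexp. The csa-1 probe's difference was −1.09 to −0.41 when 1 array was left out, designs in which the smallest exact p is 0.0571. Under normexp, spp-9 was −0.23 and pals-24 0.85, each through 1 spot, and hsp-90 was 0.016, nmrk-1 0.00059 and sip-1 0.18. sip-1 was 0.22 with quantile, and nmrk-1 lay between −0.21 (without csa-1 replicate 3) and 0.094 (without csa-1 replicate 1), with 0.043 without csa-1 replicate 4. hsp-90, nmrk-1 and sip-1 were not called with all arrays or without replicate 4. Of the other values of named genes, 1128 kept direction and side of the threshold, 324 lost the call and 47 gained it. Of 131 other probes of named genes that were well above background on all 7 arrays, 3 went the opposite way, of hsp-90 and sir-2.1. A scan-date block was not run, since all arrays were scanned on 1 day. Apart from these spots, the cause of these changes was not tested.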
